A study of Mus musculus with 5 samples.

Results

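Of the 45037 probe sets compared on mouse expression arrays of E11.5 forelimb buds, 14 report 7 genes of the neural crest and its Schwann cell precursors, out of 18193 genes with a named probe set. The genes were Sox10, Foxd3, Ednrb, Erbb3, Ngfr, Fabp7 and Tubb3, and every probe set was taken whose platform annotation gives one of these symbols and no other. Sox10, Ednrb and Ngfr had 3 probe sets each, Erbb3 had 2, and Foxd3, Fabp7 and Tubb3 had 1 each. The probe sets were picked by symbol with no measured value, but the 7 genes were chosen with earlier results of these data known. The study compared 2 arrays of Sost-/-; Sostdc1-/- double mutant embryos with 3 arrays of wild-type embryos, all of the C57Bl/6 background and of the same age, E11.5. Sost and Sostdc1 encode related secreted antagonists of Wnt and BMP signals. Per the series' design text the embryos were not pooled, and each array was taken as 1 animal, which the sex-linked values below leave uncertain for the double mutants. RNA came from whole forelimbs with no cell sorting, so fewer cells of a type and less RNA per cell cannot be told apart in any value below.

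The neural crest arises at the border of the neural tube, and its cells migrate into the body wall and limbs, where they form pigment cells, peripheral glia and parts of the peripheral nervous system. Schwann cell precursors travel into the limb along growing axons, and neuregulin from those axons acts on the ErbB3 receptor to keep them alive. Sox10 and Foxd3 are transcription factors of migrating crest and early glia. Ednrb, Erbb3 and Ngfr encode the endothelin B receptor, the neuregulin receptor and the low-affinity neurotrophin receptor p75. Fabp7 encodes a fatty acid binding protein of glial precursors, and Tubb3 encodes the neuronal beta-tubulin of axons. Several of these genes are also active in other cells of the embryo: Ednrb in vessels and mesenchyme, and Erbb3 in muscle precursors and epithelium.

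All values are log2 of the deposited probe set intensity, and differences are double mutant minus wild type with the standard error of limma, a linear-model test that pools the spread over all probe sets. Benjamini-Hochberg adjustment ran across the 45037 probe sets, and an adjusted p under 0.05 counted as a call. Each targeted gene had 2 probe sets and fell on 1 of them. On 1450179_at Sost stood at 4.16 and 4.43 in double mutants, against 6.75, 6.19 and 6.47 in wild types, and on 1460250_at Sostdc1 stood at 6.28 and 7.35 in double mutants, against 9.42, 8.94 and 9.15 in wild types. On the others, neither of which was called, Sost stood at 3.64 and 4.02 in double mutants, against 5.13, 4.36 and 4.18 in wild types, and Sostdc1 at 8.90 and 8.96 in double mutants, against 8.75, 8.90 and 9.01 in wild types. Where these probe sets lie relative to the deleted parts is not known here. The 2 groups also differed in ways outside the targeted genes. Xist was at 12.37 and 11.75 and the Y-linked Eif2s3y at 8.36 and 8.36 in the double mutant arrays, so that both were high in each. It is therefore uncertain that each double mutant array holds RNA of 1 embryo, and n = 2 and its SD may not describe single animals. Among the wild types, replicate 1 had Xist at 12.28 and Eif2s3y at 3.20, while replicates 2 and 3 had Xist at 5.73 and 5.70 and Eif2s3y at 8.49 and 8.42. The spike-in transcript Dap averaged 7.09 in the double mutants and 3.30 in the wild types, and the 3' minus 5' difference of the Gapdh control probe sets averaged 0.21 in the double mutants and −0.10 in the wild types. Preparation and genotype therefore cannot be told apart in the differences below.

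Among the 14 probe sets, 4 fell in the double mutants, 0 rose and 10 were not called. The 4 belonged to Ednrb and Ngfr, with 2 each. Over all probe sets limma called 18.2% (8.7% higher and 9.52% lower), against 28.6% of the 14. In the range of mean levels that held 8 of the 14 (5.41 to 8.08), 30.5% of all probe sets were called and 18% were lower, and in the range below it, which held 5 more, 15.3% were called and 4.74% were lower. The share called in either direction among the 14 thus lay between those of the 2 ranges, while the share called lower (28.6%) was above both. Differences below 0 were found in 12 of the 14 (85.7%), against 52.4% of all probe sets, and the median difference was −0.26 over the 14 and −0.01 over all. Sox10, Ednrb and Ngfr gave 3 probe sets each, and probe sets of 1 gene are not independent readings. The groups did not overlap in 7 of the 14, against 45.2% of all probe sets. Signal on all 14 probe sets was above the control for an absent transcript, Trpn, with a lowest value of 4.17 against Trpn means of 3.10 in double mutants and 3.07 in wild types, and 9 of the 14 lay above 5.41, the median over the whole array. Most of the array also lay above Trpn. Snap25, a neuronal gene at 3.26 in every array, exceeded both Trpn means, yet its mean level was only at percentile 9.69 of all probe sets. A level above Trpn therefore does not show that a gene was detected, and the files give no detection calls. Taking the brightest probe set of each gene, 1 of 7 genes, Ednrb, was lower and 0 were higher, against 14.7% of all genes called (6.56% higher and 8.14% lower). The median difference of the 7 was then −0.06, against −0.02 over all genes. Counted by gene in this way, differences below 0 were found in 5 of the 7, against 9870 of all 18193 genes.

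**Figure D1:**
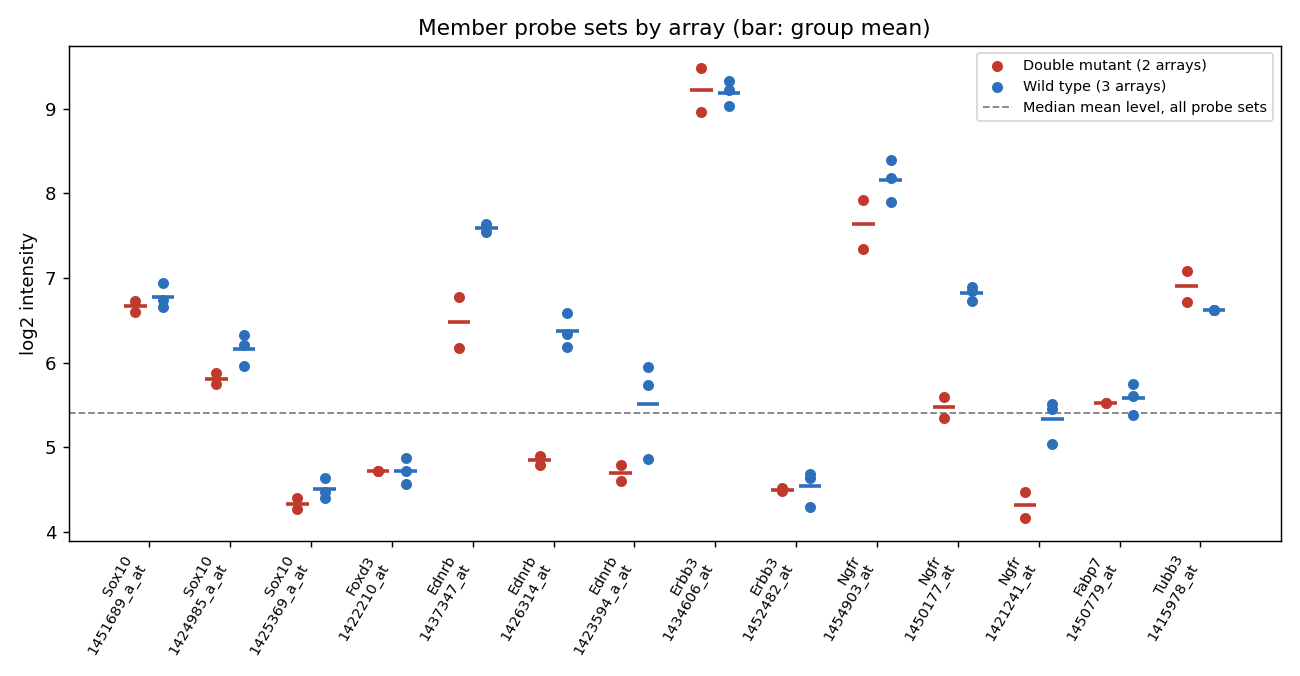
Log2 intensity of the 14 probe sets (horizontal axis) in each array, with double mutant arrays in red on the left of each pair, wild-type arrays in blue on the right, and short bars at the group means. The groups are apart on the Ednrb probe sets and on the Ngfr probe sets 1450177_at and 1421241_at, and lie over each other on Foxd3, Erbb3 and Fabp7.

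The promoters of Ednrb and Ngfr, the 2 genes with calls, are shown because each fell on 2 probe sets. They were read from RefSeq on GRCm38.p6, where 5 of the 7 genes had an entry and Sox10 and Erbb3 did not, and run from 250 bases before to 50 after a transcription start. Capitals mark matches, on either strand, to AACAAT (SOX), ACAAAG (SOX, and on the other strand also TCF/LEF), TCAAAG (TCF/LEF) and GCCNNNGGC (AP-2, a crest transcription factor family).
Ednrb, chr14:103843652-103843951, minus strand: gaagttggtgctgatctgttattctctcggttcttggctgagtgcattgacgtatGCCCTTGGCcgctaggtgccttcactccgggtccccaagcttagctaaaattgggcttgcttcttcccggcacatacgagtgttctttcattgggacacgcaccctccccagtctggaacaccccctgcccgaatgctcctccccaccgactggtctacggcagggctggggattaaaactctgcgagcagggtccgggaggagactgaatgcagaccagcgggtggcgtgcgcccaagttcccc
Ngfr, chr11:95587649-95587948, minus strand: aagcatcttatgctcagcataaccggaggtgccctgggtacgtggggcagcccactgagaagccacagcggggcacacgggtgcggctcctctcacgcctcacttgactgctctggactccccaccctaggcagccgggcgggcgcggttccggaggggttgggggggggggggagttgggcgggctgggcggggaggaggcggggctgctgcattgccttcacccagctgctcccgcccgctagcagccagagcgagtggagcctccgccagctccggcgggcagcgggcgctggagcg
The Ednrb window held 1 AP-2 match and the Ngfr window 0 matches to any of the 4 motifs, as did the windows of Foxd3, Fabp7 and Tubb3. Of 32851 promoter windows of the same length, 16.6% held the AP-2 motif, 10.7% AACAAT, 18.7% ACAAAG and 16% TCAAAG. The GC content was 58.7% for the Ednrb window and 71.7% for the Ngfr window. No match says only that these letters are not in these windows.

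Ednrb, the receptor through which endothelin 3 acts on crest-derived pigment and enteric precursors, fell on its 2 brighter probe sets. On 1437347_at the signal was 6.78 and 6.17 in double mutant replicates 1 and 2, with 7.64, 7.54 and 7.60 in wild-type replicates 1 to 3. Both double mutant arrays lay below all 3 wild-type arrays, and they lay farther from each other than the wild types did. The double mutants averaged 6.48 ± 0.43 (SD, n = 2) against 7.59 ± 0.05 (SD, n = 3) for the wild types, a difference of −1.12 ± 0.20 (SE, adjusted p = 0.0303 with limma). On 1426314_at the values were 4.79 and 4.90 in double mutants, against 6.34, 6.58 and 6.19 in wild types. Here the double mutant arrays were close together and far below the wild types, with a difference of −1.52 ± 0.14 (SE, adjusted p = 0.00876 with limma), which is 2.87-fold lower. On the dimmest, 1423594_a_at, the values were 4.79 and 4.60 in double mutants, against 5.95, 5.73 and 4.86 in wild types. Wild-type replicate 3 lay just above the higher double mutant array there, and the difference of −0.82 ± 0.37 (SE) was not called (adjusted p = 0.225 with limma).

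Ngfr encodes p75, a receptor for neurotrophins and their precursors that marks migrating crest and Schwann precursors. On 1450177_at it stood at 5.60 and 5.35 in double mutants, against 6.72, 6.90 and 6.85 in wild types. The groups were well apart, and the difference of −1.35 ± 0.10 (SE, adjusted p = 0.00742 with limma) is 2.55-fold lower. On 1421241_at the values were 4.17 and 4.48 in double mutants, against 5.46, 5.52 and 5.05 in wild types, a difference of −1.02 ± 0.19 (SE, adjusted p = 0.0349 with limma). These 2 probe sets carry the same source sequence in the platform annotation, so they are not independent readings. The brightest Ngfr probe set, 1454903_at, stood at 7.92 and 7.34 in double mutants, against 7.90, 8.18 and 8.39 in wild types. There double mutant replicate 1 lay within the range of the wild types, and the difference of −0.52 ± 0.24 (SE, 95% interval −1.17 to 0.13) was not called (adjusted p = 0.235 with limma). When the 3 probe sets were averaged in each array, Ngfr was 0.96 lower in double mutants and was called (adjusted p = 0.00585 with limma).

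Calls limited to the dimmer probe sets of a gene were common in these arrays. Of 9010 genes with 2 or more probe sets, 9.03% were lower on the brightest and 16.3% on the second brightest, while 7.95% were higher on the brightest and 6.93% on the second brightest. Among the 7480 whose brightest probe set was not called, 15.3% were lower on the second. Prrx1, which marks limb mesenchyme, stood at 12.29 in double mutants, against 12.26 in wild types on its brightest probe set and was called lower on its other 2 (−2.64 and −1.16). The part of probe set position in the Ngfr and Ednrb falls was not tested.

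The 4 calls depended on which arrays were kept. Without double mutant replicate 1, and likewise without wild-type replicate 2, limma called 0 of the 14 and 0 of all probe sets. At an unadjusted p under 0.05 there were then 5 of the 14 and 14059 of all without the first, and 4 of the 14 and 11115 of all without the second. All 4 differences stayed below 0 with any 1 array left out, at −1.43 to −0.81 and −1.61 to −1.42 for Ednrb on 1437347_at and 1426314_at, and at −1.47 to −1.23 and −1.17 to −0.86 for Ngfr on 1450177_at and 1421241_at. Without wild-type replicate 1, the array with high Xist and low Eif2s3y, the calls on Ednrb 1426314_at (−1.54, adjusted p = 0.0474 with limma) and Ngfr 1450177_at (−1.40, adjusted p = 0.0375 with limma) held, and those on Ednrb 1437347_at (−1.10, adjusted p = 0.109) and Ngfr 1421241_at (−0.96, adjusted p = 0.118) did not. Without double mutant replicate 2, the calls on Ednrb 1437347_at and Ngfr 1450177_at held, and those on Ednrb 1426314_at (adjusted p = 0.0545 with limma) and Ngfr 1421241_at (adjusted p = 0.0984) did not. Without wild-type replicate 3, the call on Ednrb 1437347_at was lost (adjusted p = 0.0983 with limma), and Ednrb was called on its dimmest probe set, 1423594_a_at (−1.14, adjusted p = 0.0323 with limma).

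**Figure D2:**
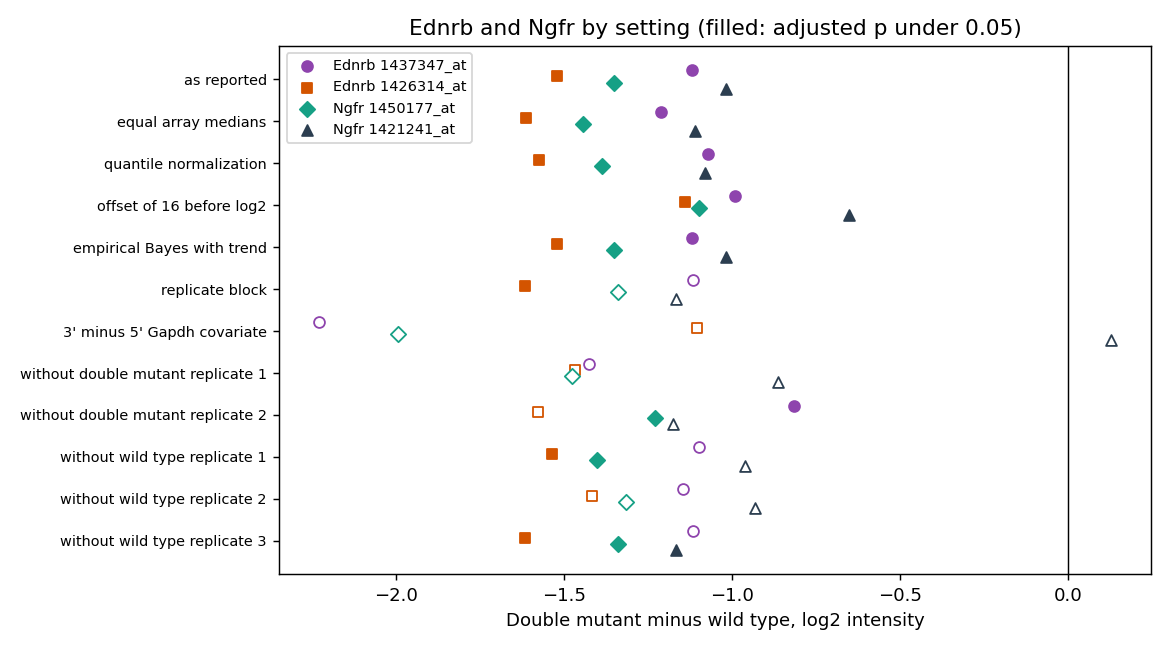
Difference between double mutant and wild type on the log2 scale (horizontal axis) for the 2 Ednrb and 2 Ngfr probe sets that were called, under each setting (vertical axis), with filled symbols at an adjusted p under 0.05. Every point but 1 lies below 0, the exception being Ngfr 1421241_at at 0.13 with the Gapdh covariate, and no symbol is filled without double mutant replicate 1, without wild-type replicate 2 or with that covariate.

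Sox10, the transcription factor that crest and all peripheral glia depend on, was not called on any of its 3 probe sets. On 1451689_a_at it stood at 6.73 and 6.60 in double mutants, against 6.65, 6.74 and 6.94 in wild types, so that the groups overlapped. The difference was −0.11 ± 0.11 (SE, 95% interval −0.41 to 0.18, adjusted p = 0.523 with limma). On 1424985_a_at the values were 5.75 and 5.87 in double mutants, against 5.96, 6.32 and 6.21 in wild types. The groups did not overlap on that probe set, but the difference of −0.36 ± 0.13 (SE, 95% interval −0.71 to −0.0047) missed the threshold (adjusted p = 0.151 with limma). On 1425369_a_at, a dim probe set, the values were 4.40 and 4.27 in double mutants, against 4.47, 4.40 and 4.64 in wild types (difference −0.17 ± 0.10, SE, adjusted p = 0.319 with limma). It carries the same source sequence as 1451689_a_at in the platform annotation, so they are not independent readings. The intervals leave room for a fall as large as 0.71 on the log2 scale.

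Foxd3, a forkhead factor of early migrating crest that also acts in pluripotent cells, stood at 4.73 in both double mutant arrays and at 4.57, 4.88 and 4.73 in wild types. The wild types spread to both sides of the double mutants, and the difference was −0.0011 ± 0.10 (SE, 95% interval −0.28 to 0.28). The signal was below the array's median in all 5 arrays.

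Erbb3, which needs ErbB2 as a partner to signal, stood at 9.48 and 8.97 in double mutants, against 9.03, 9.22 and 9.33 in wild types on 1434606_at. The double mutant arrays lay above and below all 3 wild types, and the difference was 0.03 ± 0.19 (SE, 95% interval −0.48 to 0.54, adjusted p = 0.936 with limma). On the dim probe set 1452482_at the values were 4.48 and 4.52 in double mutants, against 4.64, 4.69 and 4.30 in wild types (difference −0.04 ± 0.14, SE, adjusted p = 0.865 with limma). The sign on 1434606_at turned with equal array medians (−0.06).

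Fabp7 stood at 5.52 in both double mutant arrays and at 5.60, 5.39 and 5.75 in wild types. The groups overlapped, with a difference of −0.06 ± 0.12 (SE, 95% interval −0.39 to 0.27, adjusted p = 0.757 with limma). Tubb3, at 6.72 and 7.09 in double mutants and at 6.62 in all 3 wild-type arrays, was the 1 gene of the 7 whose double mutant arrays both lay above the wild types. The difference of 0.28 ± 0.12 (SE, 95% interval −0.05 to 0.61) was not called (adjusted p = 0.217 with limma). The deposited Tubb3 values of the 3 wild-type arrays were identical, as were the 2 double mutant values of Foxd3 and of Fabp7. Such repeats were common: 2236 of all probe sets had 1 value in all 3 wild-type arrays, and 4726 had 1 value in both double mutant arrays.

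**Figure D3:**
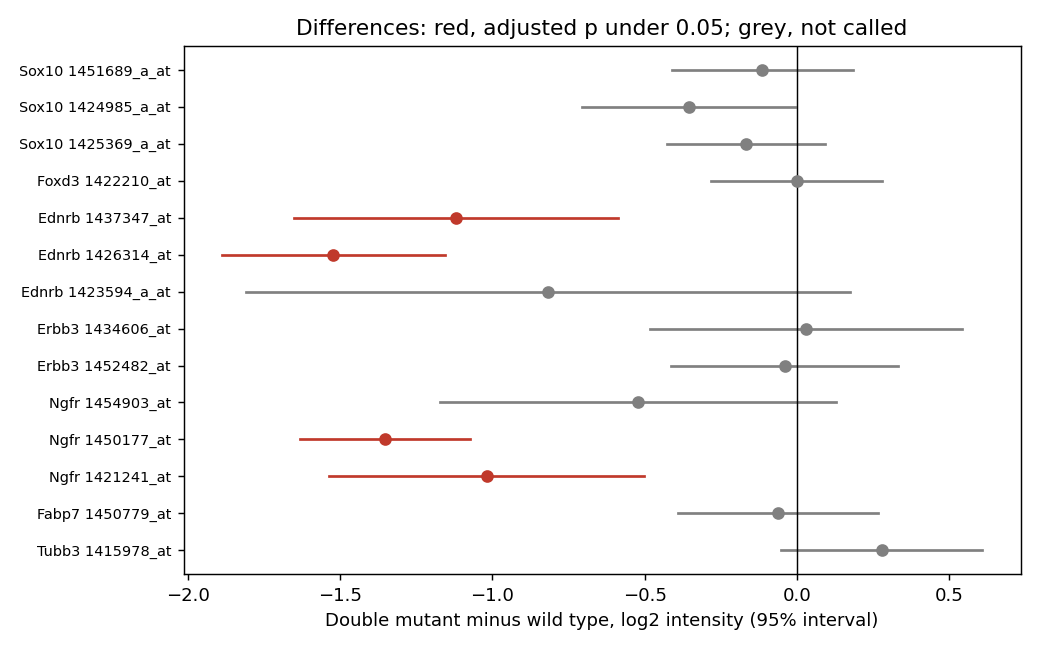
Difference between double mutant and wild type (log2 intensity, horizontal axis) for each of the 14 probe sets, with 95% intervals from limma, in red where the adjusted p was under 0.05. The 4 red intervals, of Ednrb and Ngfr, lie below 0, while the intervals of Foxd3, Erbb3, Fabp7 and Tubb3 hold 0.

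Genes of the same lineages were read from lists, with 1 value per gene from its brightest probe set. In the glial and Schwann lineage list, 1 of 18 measured genes rose, 3 fell and 14 were not called (22.2% called, median difference −0.12). Over all genes read this way 14.7% were called, 6.56% higher and 8.14% lower, with a median difference of −0.02, which is the background for each list below. Cdh19, a cadherin of Schwann precursors, stood at 4.37 and 4.27 in the double mutant arrays, with 4.65, 4.87 and 4.76 in the wild types, a fall of 0.44 ± 0.09 (SE, adjusted p = 0.0369 with limma) at dim levels. Gfra3, a co-receptor for artemin in peripheral glia and sensory neurons, fell by 0.78 ± 0.10 (adjusted p = 0.0155 with limma). Cnp, an enzyme of myelinating glia that other cells also express, fell by 0.34 ± 0.06, and its other called probe set fell too. Metrn, a secreted factor of glia and progenitors, rose by 0.76 ± 0.06 (SE).

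In the list of crest specifiers and melanoblast genes, 1 of 19 rose, 1 fell and 17 were not called (10.5% called, median difference −0.12). Mitf, the master transcription factor of pigment cells, fell by 0.73 ± 0.14 (SE, adjusted p = 0.0341 with limma) on its brightest probe set. Another Mitf probe set, 1422025_at, was dim at 3.26 in both groups and was not called (−0.0054). Itga4, an integrin of migrating crest and many other cells, rose by 1.48 ± 0.26 (SE) on its brightest probe set but was called lower on its other 2 (−1.94 and −2.72), so it has no single direction. Kit, the melanoblast receptor that blood precursors also carry, differed by −0.27 (adjusted p = 0.0818 with limma) on its brightest probe set and was called on another (−1.48 ± 0.23, SE). Dct, a pigment enzyme gene and early melanoblast marker, stood at 4.62 in double mutants, against 4.92 in wild types (adjusted p = 0.397 with limma). Other probe sets of this list were called lower in 6 cases and higher in 0.

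In the neuron and axon list, 0 of 25 rose, 1 fell and 24 were not called (4% called, median difference 0.0050). Uchl1, an abundant neuronal ubiquitin hydrolase, fell by 0.83 ± 0.14 (SE, adjusted p = 0.0293 with limma). Stmn2, a microtubule regulator of growing axons, stood at 6.77 in double mutants, against 7.17 in wild types and was not called on its brightest probe set (adjusted p = 0.275 with limma), while its second fell by 0.70 ± 0.11. Of the 31 other probe sets of this list 3 were called lower and 1 higher, where the background for second brightest probe sets was 16.3% and 6.93%. Both directions occurred for Map2, a microtubule protein of dendrites (1.499 ± 0.21, SE, on 1440699_at, and −1.805 ± 0.33 on 1421328_at). Nefl, a neurofilament gene, differed by −0.30 (adjusted p = 0.0962 with limma). Isl1, a transcription factor of motor and sensory neurons, and Pou4f1, one of sensory neurons, differed by 0.35 and 0.24 and were not called.

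Among ligands and receptor partners, 0 of 21 measured genes rose, 3 fell and 18 were not called (14.3% called, median difference −0.06). Erbb2, the partner of ErbB3, stood at 8.27 in double mutants, against 8.69 in wild types, a fall of 0.41 ± 0.09 (SE, adjusted p = 0.0463 with limma). Ece1, the enzyme that activates endothelins, fell by 0.46 ± 0.06 (SE), and Ntrk2, the receptor for BDNF, fell by 0.68 ± 0.09 (SE). Edn3, the ligand of the endothelin B receptor, stood at 8.05 and 7.96 in double mutants, against 8.18, 8.22 and 8.10 in wild types, on its brightest probe set, which was not called (adjusted p = 0.183 with limma). On its other probe set, 1421136_at, Edn3 stood at 5.10 and 5.14 in double mutants, against 6.52, 6.69 and 6.24 in wild types, a fall of 1.36 ± 0.15 (SE, adjusted p = 0.0121 with limma). Of the 33 other probe sets of this list 4 were called lower, that of Edn3 among them, and 0 higher. Sort1, not called on its brightest probe set (−0.0024), was lower on 1423363_at (−1.02) and 1450955_s_at (−1.31), and Nrg2 on 1447654_at (−0.48). Nrg1, the neuregulin that signals through ErbB3, was dim in both groups, at 3.71 in double mutants, against 3.79 in wild types. Among tubulin and Fabp relatives, 1 of 16 rose and 2 fell (18.8% called). Tubb1 differed by 0.40 ± 0.08, Tubb4a by −0.91 ± 0.14 and Tubg1, a gamma-tubulin gene, by −0.35 ± 0.07 (SE). Of the 14 other probe sets of these relatives 1 was higher (Tubb5 1455719_at, 1.09) and 1 lower (Tubb2a 1427838_at, −1.42).

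**Figure D4:**
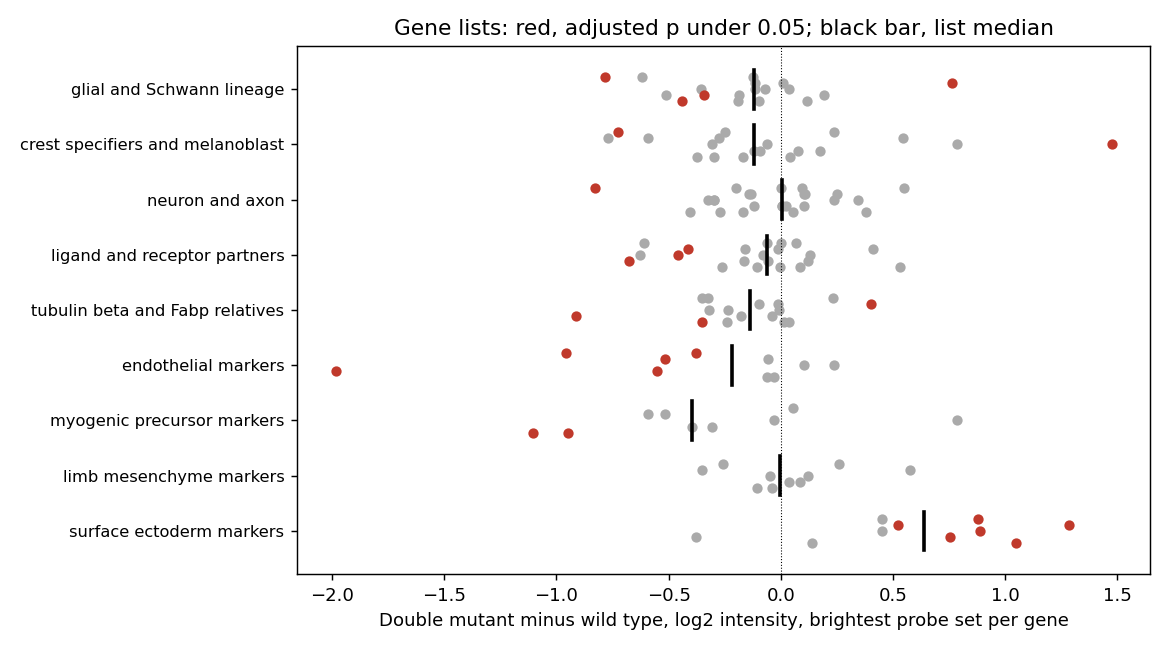
Difference between double mutant and wild type (log2 intensity, horizontal axis) of each measured gene of 9 lists, by its brightest probe set, with called genes in red and the list median as a black bar. The called genes of the endothelial list all lie below 0 and those of the surface ectoderm list all above 0, while the limb mesenchyme list has none.

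Markers of some other cell types also differed between the groups, and not all in the same direction. Of 10 endothelial markers 5 fell and 0 rose (50% called), led by Pecam1 (−1.98 ± 0.13, SE, adjusted p = 0.00663 with limma) and Tie1 (−0.96 ± 0.10, SE), with smaller falls of Esam, Cldn5 and Emcn. The summed intensity of the 10 was 2025.3 to 2074.1 in double mutants and 2590.6 to 2759 in wild types. Cdh5, Tek and Kdr, also endothelial, differed by −0.06 to −0.03 and were not called, and 3 other probe sets of Egfl7 were called higher. Of 9 measured muscle precursor markers 2 fell (22.2% called), Myod1 (−1.10 ± 0.16, SE) and Cxcr4 (−0.95 ± 0.19, SE), with sums of 2307.4 to 2894.4 in double mutants and 3221.1 to 3609.5 in wild types. Of the 6 other muscle probe sets 2 were lower and 0 higher. These were Met 1422990_at (−2.88) and Lbx1 1422323_a_at (−0.75), of genes not called on the brightest probe set. Surface ectoderm markers were called higher in 6 of 10 cases (60% called: Epcam, Esrp1, Trp63, Wnt6, Fgf8 and Cdh1), with sums of 6136.2 to 6290.6 in double mutants and 4028 to 4513 in wild types. The median difference of this list was 0.64. Krt5 went the other way, at 9.43 and 9.12 in double mutants, against 9.49, 9.67 and 9.79 in wild types (−0.38 ± 0.14, SE), and was not called. Of the 9 other ectoderm probe sets 2 rose and 1 fell, and both directions occurred for Trp63 (0.90 on 1459581_at and −1.90 on 1452027_a_at). None of the 10 limb mesenchyme markers, which check the labelled tissue, was called by limma on its brightest probe set (0 higher, 0 lower, 1 at an unadjusted p under 0.05, Prrx1 and Pdgfra at 12.29 and 12.25 in double mutants, against 12.26 and 12.35 in wild types), while 6 of their 15 other probe sets were lower. The part of vessel, muscle or ectoderm RNA in the Ednrb and Ngfr differences was not tested.

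The pattern most like that of Sox10 on 1451689_a_at over the 5 arrays, by the root mean square difference of log2 values after each gene's own mean was taken off, was that of Tmem229b (0.018), then Mprip (0.021) and Tyrobp (0.022), among 11531 genes above the median level. None of the 3 was called by limma, with differences of −0.13 to −0.08.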

How the data were processed

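Forelimb RNA of 5 samples was labelled in 2 rounds of amplification, per the labels' protocols, and measured on single-channel arrays. The authors deposited linear probe set intensity values. RMA and limma are named in the submitters' processing notes without versions, and how they were set is not given in the sources used here. The deposited array medians lay between 39.408 and 44.364, so log2 was taken with no further normalization. From 45101 probe sets 64 manufacturer controls were left out. Gene symbols came from the platform annotation, and all 14 member probe sets matched the RefSeq gene table. Limma 3.58.1 (R 4.3.3) fitted 1 mean per genotype with no covariate, no filter and no trend (degrees of freedom: 3 residual, 1.294 prior), with two-sided p-values. With 5 arrays, their number limits the precision. Alternatives were equal array medians, quantile normalization, an offset, a brightness filter, an intensity trend, the replicate block, a Gapdh covariate, other probe sets per gene and leaving out each array.

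The genes, the lists and the naming rule were chosen with earlier results of these data known. The rule named every probe set of the 7 genes, up to 6 called genes of each list (or its 2 brightest) and a few lineage genes. Some other probe sets of those genes, the calls that run against the first, and uncalled markers were named after their values were seen. In simulated data of this design limma recovered 20% of 1.5-fold, 56% of 2-fold, 80% of 4-fold and 88% of 8-fold changes, with 50 probe sets changed at each size among 45037. The simulation thus changed 200 probe sets, against 8206 called in the data, and held no difference in preparation. Its rates may therefore not hold for these arrays.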

Additional observations from a re-analysis of the deposited data

Results flagged for a closer look

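The spike-in transcript Dap, which comes from no mouse gene and was in no comparison between genes, was 3.79 higher on the log2 scale in double mutant arrays than in wild-type arrays (7.09 in double mutants, 3.30 in wild types, over 6 probe sets).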

How the results depend on the processing

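The number of called member probe sets stayed at 4 with equal array medians, quantile normalization, an offset of 16 and an intensity trend, and was 3 of the 9 left by the brightness filter. The replicate numbers 1 and 2 are shared by both groups, but their deviations from the group means correlated at 0.09 and 0.12 over only 2 pairs, so they were not taken as pairs. With the replicate block, which leaves wild-type replicate 3 without weight, 2 member probe sets (Ednrb on 1426314_at and 1423594_a_at), 0 member genes on the brightest probe set and 2351 of all probe sets were called, with 0 glial, 1 crest and melanoblast, 0 neuron and 0 ligand and partner genes, and Fabp7 turned to 0.024. The calls lost there were Ednrb 1437347_at (−1.12), Ngfr 1450177_at (−1.34) and Ngfr 1421241_at (−1.17). With the 3' minus 5' Gapdh difference as a covariate, which separates the groups by itself, 0 member probe sets, 0 member genes, 0 genes of any list and 0 of all probe sets were called by limma (4 of the 14 and 4259 of all at an unadjusted p under 0.05), and the sign turned for Ednrb 1423594_a_at (0.32), Erbb3 1434606_at (−1.35), Erbb3 1452482_at (0.48) and Ngfr 1421241_at (0.13), with adjusted p of 0.424 to 0.965. The other lost calls stayed below 0, at −2.23 for Ednrb 1437347_at, −1.10 for Ednrb 1426314_at and −1.995 for Ngfr 1450177_at. Erbb3 1434606_at also turned with equal array medians (−0.061), with the mean of its probe sets (−0.0056) and on its second probe set (−0.041). The crest and melanoblast list had 2 calls, and 4 with equal array medians, the brightness filter or probe set means. The neuron list had 1 call, and 3 with equal medians or the second brightest probe set and 2 with quantile normalization, the filter or probe set means. The ligand and partner list had 3 calls, and 5 with the offset and 6 with probe set means, and the glial list had 4, and 1 on the second brightest probe sets. Of the member genes 2, Ednrb and Ngfr, were called with probe set means or on the second brightest.

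With 1 array left out at a time (a lone double mutant array is then assumed to vary like the wild types), calls ranged from 0 to 5108 over all probe sets, 0 to 4 over the member probe sets, 0 to 1 over the member genes, 0 to 2 in the glial list, 0 to 1 in the crest and melanoblast list, 0 to 1 in the neuron list, 0 to 3 in the ligand and partner list, 0 to 2 among the tubulin and Fabp relatives, 0 to 3 in the endothelial list, 0 to 1 in the muscle list and 0 to 3 in the ectoderm list, each 0 without double mutant replicate 1 or wild-type replicate 2. With the replicate block these last 4 lists had 0, 2, 0 and 0 calls, and the muscle list had 5 with equal array medians or probe set means. Differences that turned sign ranged from −0.078 to 0.076 for Foxd3, −0.23 to 0.28 for Erbb3 1434606_at, −0.16 to 0.032 for Erbb3 1452482_at and −0.16 to 0.024 for Fabp7. Over the alternatives run on each probe set's own values, the call held in 6 of 12 for Ednrb 1437347_at, 8 of 12 for Ednrb 1426314_at, 8 of 12 for Ngfr 1450177_at and 5 of 11 for Ngfr 1421241_at. Leaving out an array also leaves fewer degrees of freedom, and the other causes were not tested.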
